A study of Mus musculus with 2 samples.

Results

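The Hoxc cluster genes are the 9 homeobox genes Hoxc13, Hoxc12, Hoxc11, Hoxc10, Hoxc9, Hoxc8, Hoxc6, Hoxc5 and Hoxc4, which lie in that order on the forward strand of mouse chromosome 15. They were taken by name from the GENCODE M21 annotation, where they are 9 of 21755 protein-coding genes on the autosomes and the X chromosome. The quantity read was where peaks of trimethylated lysine 27 of histone H3 (H3K27me3) lay over each gene and in the stretches between and beside the genes. All coordinates are those of the mm10 mouse genome (GRCm38).

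The study mapped H3K27me3 by chromatin immunoprecipitation and sequencing (ChIP-seq) in cells of the line E14TG2a.4, embryonic stem cells from a male 129/Ola mouse, with an embryonic age of 3.5 day in the labels. There was 1 group with 2 biological replicates of the same line and donor, and the labels name no treatment and no change of genotype. The values were counted from peak lists alone, with no second condition, input library or read depth added. Each gene is therefore described in each replicate and no test was made. Whether the authors' peak calling drew on an input library is unknown. A peak list pools all cells of a culture, so a mark on more cells or alleles and a denser mark on each cannot be told apart.

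H3K27me3 is placed on nucleosomes by Polycomb repressive complex PRC2, is bound by Polycomb complex PRC1, and is a mark of genes kept silent. The HOX genes encode transcription factors that set position along the body axis. Within a cluster the genes at the 3' end, such as Hoxc4, are used earlier and further forward in the embryo than those at the 5' end, such as Hoxc13. In embryonic stem cells the HOX clusters are textbook targets of PRC2, and many of their start regions also carry marks of active genes, a state called bivalent.

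Replicate 1 had 63651 peaks over 53.6 Mb and replicate 2 had 98582 peaks over 58.4 Mb. Of the bases in a peak of either replicate across the genome, 53.9% were in a peak of both. The pluripotency genes Pou5f1, Nanog and Sox2 had no peak within 1 kb of the 5' end in either replicate. Of 6 fibroblast genes, Pdgfra, Thy1, Col1a1 and Col1a2 had peaks there in both replicates, and Col3a1 and Acta2 had none. A list of peaks of a silencing mark does not show which cells were present.

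All 9 Hoxc genes had a peak within 1 kb of the annotated 5' end in both replicates, where 26.1% of all protein-coding genes did. In all 9 the peaks also filled at least 50% of that 2001-base window in each replicate, against 14% of all genes. With 5 kb on each side, 8 of 9 genes had at least 90% of the window in a peak in both replicates, against 0.689% of all genes. The exception was Hoxc13. At least 90% of the annotated gene body was covered in both replicates in 7 of 9 genes, against 1.28% of all genes, and the exceptions were Hoxc13 and Hoxc4. The Hoxc genes are neighbours under shared peaks, so these counts are not 9 separate observations.

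Along the whole cluster, from the first base of Hoxc13 to the last base of Hoxc4 (chr15:102921103-103036852, 115750 bases), peaks covered 95.3% of the bases in replicate 1 and 93.8% in replicate 2. The bases covered in both came to 92.9%. Of the cluster bases in a peak of either replicate, 96.6% were in a peak of both. With cover this dense that share could not have been below 89.1%, so it is no measure of agreement between the replicates. For the same reason all 39 peaks of replicate 1 and all 51 peaks of replicate 2 in the cluster overlapped a peak of the other replicate by at least 1 base. Over all peaks of the lists, 73.6% in replicate 1 and 53.7% in replicate 2 did so.

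**Figure D1:**
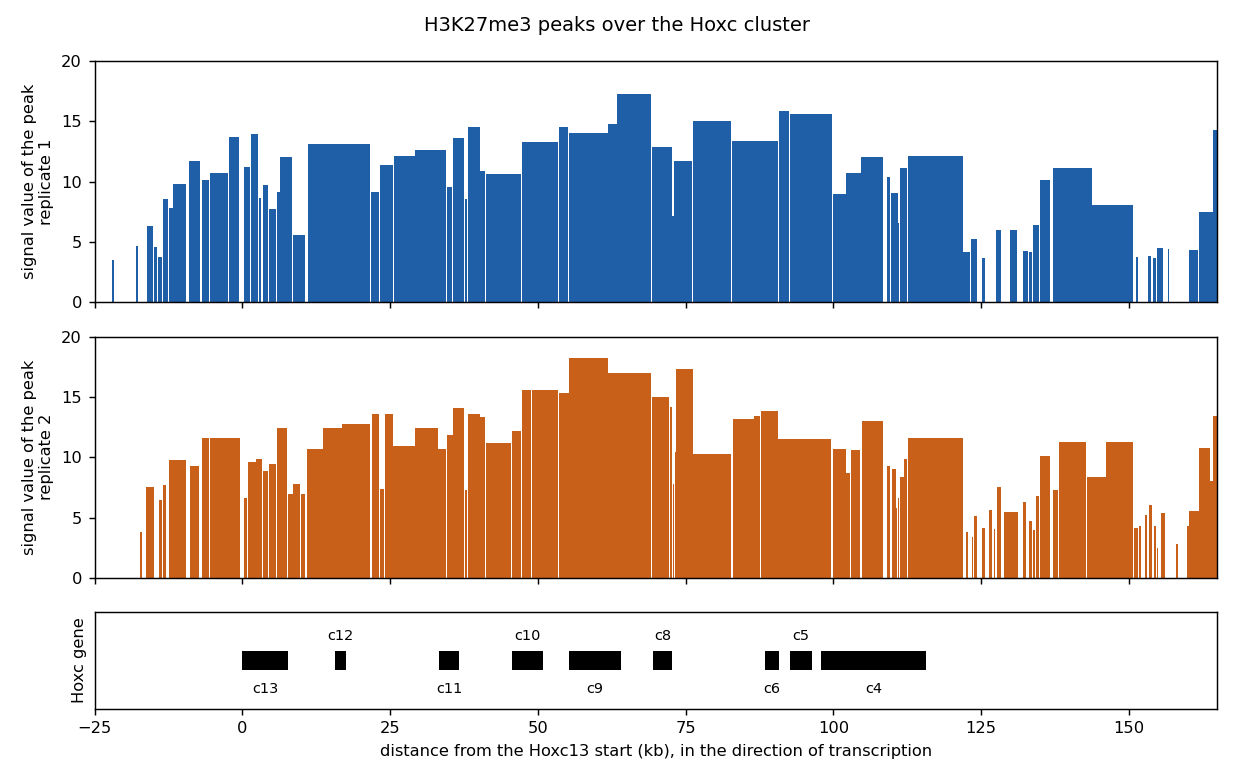
Peaks of replicate 1 (top) and replicate 2 (middle) along the Hoxc cluster, each drawn over its extent at the height of the authors' signal value, with the coding transcripts of the 9 genes below; the horizontal axis is distance from the Hoxc13 start in kb. Peaks cover 95.3% and 93.8% of the cluster, and the highest signal values, 17.3 and 18.2, lie between Hoxc9 and Hoxc8 in replicate 1 and at Hoxc9 in replicate 2.

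The peaks of the cluster were wide and strong within their lists. Their median length was 1947 bases in replicate 1 and 1336 bases in replicate 2, against 547 and 373 bases over all peaks of the same lists. The longest were a peak of 10572 bases over Hoxc12 in replicate 1 and one of 9252 bases over the end of Hoxc4 in replicate 2. The signal value is the authors' own number for each peak, on a scale not given in the sources used here, so genes and peaks are ranked by it only within a list. Its median over the cluster's peaks was 11.7 in replicate 1 and 11.2 in replicate 2, against 4.66 and 4.32 over all peaks. Of the cluster's peaks, 10 in replicate 1 and 17 in replicate 2 stood at or above the 99th percentile of their list.

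At the posterior end of the series, Hoxc13 stood apart from the other members. Hoxc13, which is required for hair and nail formation, had 1097 of 2001 bases within 1 kb of its 5' end covered in replicate 1 and 1265 in replicate 2, with 1042 in common. Both its 1 kb and its 5 kb windows were the least covered of the 9 in each replicate. Its start lay outside any peak in both replicates. The open stretch ran from 595 bases before the start to 309 bases into the gene in replicate 1 (904 bases), and from 420 bases before to 261 bases into the gene in replicate 2 (681 bases). It was the only member whose annotated 5' end was outside the peaks, and its coding sequence was the least covered, with 729 of 984 bases in replicate 1 and 808 in replicate 2. Peaks flanked the open stretch on both sides. The highest signal values within 1 kb, 13.7 in replicate 1 and 11.6 in replicate 2, belong to the peaks before the gene. The first peak inside the gene had 11.2 in replicate 1 and 6.65 in replicate 2.

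Hoxc12, Hoxc11 and Hoxc10 belong to the same posterior end of the cluster and act in the lumbosacral region, the limbs or the genital region of the embryo. The Hoxc12 window of 1 kb on each side was fully covered in both replicates. Hoxc11 had 2001 bases of that window covered in replicate 1 and 1924 in replicate 2, and Hoxc10 had 2001 and 1731. These genes were thus covered at the start itself, unlike Hoxc13, and replicate 2 was the lower one where the replicates differed. The share of the gene body covered in both replicates was 93.6% for Hoxc12, 91.4% for Hoxc11 and 96.2% for Hoxc10. Coding sequence was wholly covered in both replicates in Hoxc12 and Hoxc10, and in Hoxc11 at 861 of 912 bases in replicate 1 and 881 in replicate 2.

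Hoxc9 and Hoxc8, which pattern the thoracic skeleton and spinal motor neurons, lay at or beside the highest single peak of each list in the cluster. At Hoxc9 the highest value within 1 kb of the 5' end was 14.5 in replicate 1 and 18.2 in replicate 2, and at Hoxc8 it was 17.3 and 17.0. The peak that gave 17.3 in replicate 1 spans chr15:102984582-102990310, from the end of Hoxc9 to just before Hoxc8, and ranked 40 by signal of the 63651 peaks in its list. The peak that gave 18.2 in replicate 2 spans chr15:102976402-102982899 over Hoxc9 and ranked 14 of 98582. The leading peak was thus a different one in each list, and the 17.3 at Hoxc8 belongs to a peak that ends before the gene, while the peak over Hoxc8 itself had 12.9. High values were not limited to these genes. Hoxc4 (15.6) and Hoxc6 (15.1) were above Hoxc9 in replicate 1 by the same 1 kb value, and Hoxc6 (17.35) was above Hoxc8 in replicate 2. These replicate 2 values of Hoxc6 and Hoxc8 belong to peaks that end before the annotated gene starts. The peak over the Hoxc8 start had 15.04 in replicate 2. Those over the annotated and the coding start of Hoxc6 had 10.27 and 13.88, so by these peaks Hoxc6 was below Hoxc8. Within 1 kb of the 5' end, 1879 and 1919 bases of Hoxc9 were covered in replicates 1 and 2, and 1859 and 1918 bases of Hoxc8. Both genes had a short stretch open in both replicates just before the start, of 82 bases before Hoxc9 and 83 bases before Hoxc8.

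The letters under those leading peaks are shown because they can be set against the uncovered stretches given further on. Each is the 151 bases around the peak's summit, the position the authors' file gives as the highest point, on the forward strand of GRCm38.p6, with CG dinucleotides in capitals. The first lies between Hoxc9 and Hoxc8 at chr15:102986485-102986635 and the second inside a Hoxc9 intron at chr15:102980143-102980293. They hold 2 and 0 CG dinucleotides, so neither summit fell on a CG-rich start region.
Summit of the highest peak in replicate 1: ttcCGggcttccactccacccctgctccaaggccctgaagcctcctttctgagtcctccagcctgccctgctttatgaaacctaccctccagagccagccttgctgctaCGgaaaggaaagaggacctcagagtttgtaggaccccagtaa
Summit of the highest peak in replicate 2: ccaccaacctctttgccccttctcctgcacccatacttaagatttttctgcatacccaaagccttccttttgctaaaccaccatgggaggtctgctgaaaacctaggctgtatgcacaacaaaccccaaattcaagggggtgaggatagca

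Hoxc6, Hoxc5 and Hoxc4 form the anterior end and are used in the cervical and upper thoracic region. Their annotated 5' ends need care, because GENCODE starts 2 of them at non-coding transcripts far from the coding ones. Hoxc5 is given a first base at 102967443, inside Hoxc10, and so a gene body of 49987 bases. At that position 1880 bases were covered in replicate 1 and 1622 in replicate 2. The coding Hoxc5 transcript starts at 103013815, and there 1944 bases of the 1 kb window were covered in replicate 1 and all 2001 in replicate 2. Its body from there on was wholly covered in both replicates, under 1 peak in each. The low place of Hoxc5 in the 1 kb values thus belongs to a window that lies at Hoxc10.

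Hoxc6 had 1904 and 1930 of 2001 bases covered around the annotated gene start at 102998257, and 2001 and 1892 around its coding start at 103009573. Both starts gave similar cover, and both lay inside a peak. Hoxc4 has a coding start at 103018934, where the window was fully covered in both replicates, and another at 103034395, where 1861 and 1827 bases were covered. Its gene body had 88.6% of bases covered in both replicates, the lowest after Hoxc13, and its stretches open in both replicates lay in introns, while its coding sequence was covered in full.

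The 250 bases upstream of the second Hoxc4 start are printed because the data bear on them, every base being inside a peak in both replicates. They come from the RefSeq promoter table (GRCm38.p6, forward strand, chr15:103034145-103034394), which matched 1 of the 9 genes, and CG dinucleotides are in capitals. There are 8, and 43.0% of the 32851 promoters in the table hold at least as many in the same 250 bases (CG reads the same on both strands).
Hoxc4 upstream of the start: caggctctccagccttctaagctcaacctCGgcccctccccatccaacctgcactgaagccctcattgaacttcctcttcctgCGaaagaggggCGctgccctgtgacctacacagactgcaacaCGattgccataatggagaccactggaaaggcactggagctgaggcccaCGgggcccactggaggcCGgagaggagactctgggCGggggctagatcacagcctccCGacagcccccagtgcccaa

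**Figure D2:**
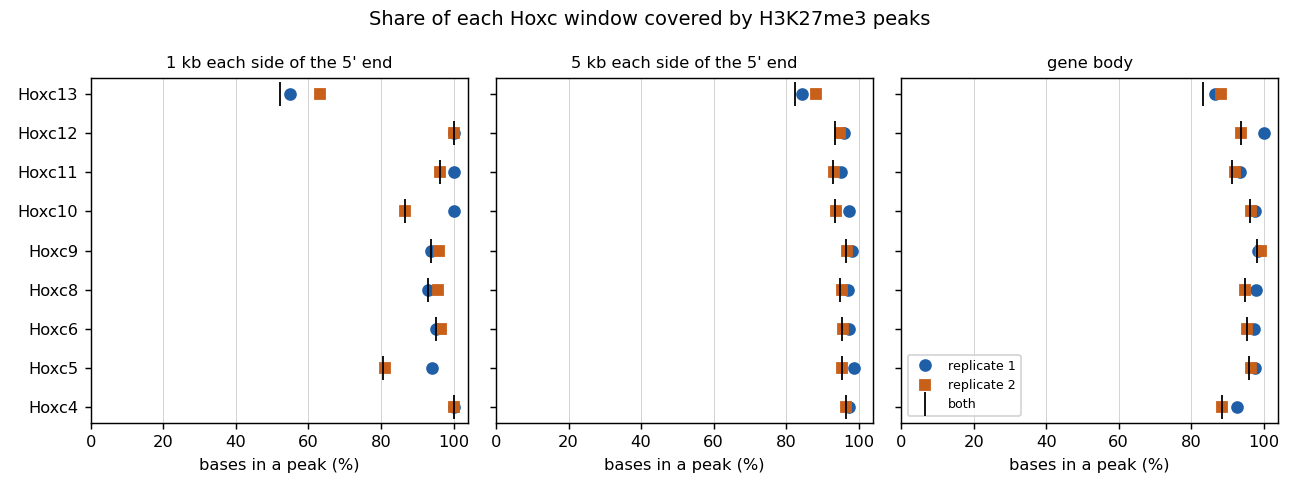
Share of bases in a peak (%, horizontal axis) for each Hoxc gene in the windows of 1 kb and 5 kb either side of the annotated first base and in the gene body; circles are replicate 1, squares replicate 2 and black ticks the bases common to both. Hoxc13 has the lowest value in the 1 kb panel, with 1042 common bases of 2001, and the 8 other genes exceed 90% in the 5 kb panel.

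Ranked within each list by the mean signal value over the coding gene's covered bases, Hoxc13 was last of the 9 and Hoxc4 was eighth in each replicate. Hoxc9 came second with 14.3 in replicate 1 and first with 17.9 in replicate 2. Hoxc5 came first with 15.6 in replicate 1 and seventh with 11.5 in replicate 2. In each list 1 wide peak covers Hoxc5 and carries 1 value, and why its rank differed was not tested. Hoxc8 had rank 5 in replicate 1 and rank 2 in replicate 2, and Hoxc10 had ranks 6 and 3. The order of the upper genes thus differed between the lists. Hoxc9, Hoxc6, Hoxc12, Hoxc11, Hoxc4 and Hoxc13 kept that order among themselves in both lists. Their values were 14.3, 13.4, 13.2, 12.0, 11.5 and 10.8 in replicate 1 and 17.9, 13.8, 12.5, 12.1, 11.03 and 10.01 in replicate 2. These genes were picked from the 9 because their order agreed, so this is no measure of agreement between the lists. Hoxc9, Hoxc8, Hoxc10, Hoxc11, Hoxc4 and Hoxc13 likewise kept their order in both lists. Over 115 steps of 1 kb the replicates' mean signal had a Pearson r of 0.521 and a Spearman rho of 0.451, given as a description, since neighbouring steps share wide peaks.

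The mark did not follow the genes' outlines. Bases between the coding genes were covered in both replicates at 93.8%, introns at 90.1%, untranslated exons at 94.5% and coding exons at 95.9%. The interval from Hoxc9 to Hoxc8 was covered at 97.4% and carried a mean signal of 17.1 in replicate 1 and 16.9 in replicate 2, above every coding gene in replicate 1 and below Hoxc9 alone in replicate 2. Between the first and last base of a coding Hoxc transcript lay 20 of 39 peak summits in replicate 1 (51.3%) and 25 of 51 in replicate 2 (49.0%), where such spans make up 46.4% of the cluster.

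Other genes annotated within the cluster lay under the same peaks. Hotair, a long non-coding RNA read from the opposite strand between Hoxc12 and Hoxc11, had 90.1% of its body covered in replicate 1 and 90.02% in replicate 2, and its 1 kb window was complete in both. The small RNA genes Gm27337, Gm27443, Gm28011 and Gm27535 were wholly inside peaks in both replicates. So were the microRNA genes Mir196a-2, between Hoxc10 and Hoxc9, and Mir615, in the Hoxc5 intron.

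The mature microRNAs of the cluster are shown as RNA from the RefSeq table (GRCm38.p6), with the seed, bases 2 to 8, in capitals. miR-196 is known to act on Hox transcripts. Mir196a-2 lies at chr15:102973350-102973434 and its hairpin was covered at all 85 bases in both replicates. The same mature 5p sequence is listed for Mir196a-1 on chromosome 11, and mmu-miR-196b-5p of Mir196b on chromosome 6 has the same seed. Those copies were looked up after the values had been seen, and their 22 mature bases were also inside peaks in both replicates.
mmu-miR-196a-5p: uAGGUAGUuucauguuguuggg
mmu-miR-196b-5p: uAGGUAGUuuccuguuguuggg
mmu-miR-196a-2-3p: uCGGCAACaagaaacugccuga
mmu-miR-615-3p: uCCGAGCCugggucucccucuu
mmu-miR-615-5p: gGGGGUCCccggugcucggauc

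The uncovered part of the cluster was made of many short stretches rather than a few long ones. Replicate 1 had 39 of them with a median of 121 bases, and replicate 2 had 51 with a median of 109 bases. In 34 stretches, 4415 bases or 3.81% of the cluster, neither replicate had a peak. Their median was 100.5 bases, 30 of them were under 200 bases, and the longest was 534 bases in a Hoxc4 intron (chr15:103029587-103030120). Of the 34, 15 lay between genes, 14 in introns and 5 touched exons.

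The bases outside peaks in both replicates differed in composition from those inside. Of the former, 54.8% were repeat or low-complexity sequence in the soft-masked reference genome, against 13.4% of the bases covered in both, and their GC content was 41.4% against 49.6%. The ratio of observed to expected CG dinucleotides was 0.397 against 0.352. In all, 14 of the 34 stretches held a tandem run of at least 20 bases, meaning a unit of 1 to 4 bases repeated without a break. The cluster has 50 such runs, of 2154 bases in all, and 33.8% of those bases were outside peaks in both replicates, against 3.81% of the cluster as a whole. Of the 50 runs, 19 touched such bases and 22 lay wholly inside peaks of both replicates, so a run was often covered too. How well sequencing reads can be placed in such repeats was not measured here, and its part in the gaps was not tested.

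Examples are printed below with the longest run in each stretch in capitals, because they show the letters of the stretches that held such a run, which were 14 of the 34. All are whole uncovered stretches on the forward strand of GRCm38.p6. They lie in a Hoxc10 intron (chr15:102968335-102968446), a Hoxc4 intron (chr15:103033583-103033722), at 2 places between Hoxc12 and Hoxc11 (chr15:102942738-102942903 and chr15:102950263-102950333) and in a Hoxc13 intron (chr15:102924437-102924568). The runs are 88, 62, 56, 43 and 51 bases long.
Hoxc10 intron: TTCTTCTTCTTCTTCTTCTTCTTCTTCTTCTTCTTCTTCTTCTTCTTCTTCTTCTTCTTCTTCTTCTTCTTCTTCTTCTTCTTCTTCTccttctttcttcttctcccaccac
Hoxc4 intron: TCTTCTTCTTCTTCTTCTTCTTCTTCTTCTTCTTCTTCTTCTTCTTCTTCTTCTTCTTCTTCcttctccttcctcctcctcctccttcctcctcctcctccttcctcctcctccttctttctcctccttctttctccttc
Between Hoxc12 and Hoxc11, first place: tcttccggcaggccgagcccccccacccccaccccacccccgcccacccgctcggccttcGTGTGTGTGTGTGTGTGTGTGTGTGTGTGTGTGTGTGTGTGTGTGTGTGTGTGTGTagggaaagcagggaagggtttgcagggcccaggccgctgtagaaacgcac
Between Hoxc12 and Hoxc11, second place: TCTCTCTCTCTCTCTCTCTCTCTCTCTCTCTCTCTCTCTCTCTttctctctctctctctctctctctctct
Hoxc13 intron: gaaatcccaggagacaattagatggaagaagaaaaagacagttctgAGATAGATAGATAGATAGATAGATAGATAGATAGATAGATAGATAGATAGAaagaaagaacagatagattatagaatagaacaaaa

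Not every stretch was of that kind. The 2 longest without a long tandem run outside exons were one of 278 bases between Hoxc13 and Hoxc12 (chr15:102931760-102932037), which holds 15 CG dinucleotides, and one of 229 bases between Hoxc8 and Hoxc6 (chr15:103003787-103004015), which holds 1. They are shown on the forward strand with CG in capitals. The CG count thus differed widely between stretches that neither replicate covered.
Between Hoxc13 and Hoxc12: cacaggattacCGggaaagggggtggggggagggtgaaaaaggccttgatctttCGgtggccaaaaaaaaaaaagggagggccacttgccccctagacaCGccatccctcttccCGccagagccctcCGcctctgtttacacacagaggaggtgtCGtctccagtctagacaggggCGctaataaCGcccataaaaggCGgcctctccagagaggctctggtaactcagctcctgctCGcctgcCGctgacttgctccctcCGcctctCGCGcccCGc
Between Hoxc8 and Hoxc6: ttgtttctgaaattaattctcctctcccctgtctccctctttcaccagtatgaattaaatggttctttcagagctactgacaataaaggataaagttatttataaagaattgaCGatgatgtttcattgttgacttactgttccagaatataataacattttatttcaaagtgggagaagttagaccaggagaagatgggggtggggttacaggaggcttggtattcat

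**Figure D3:**
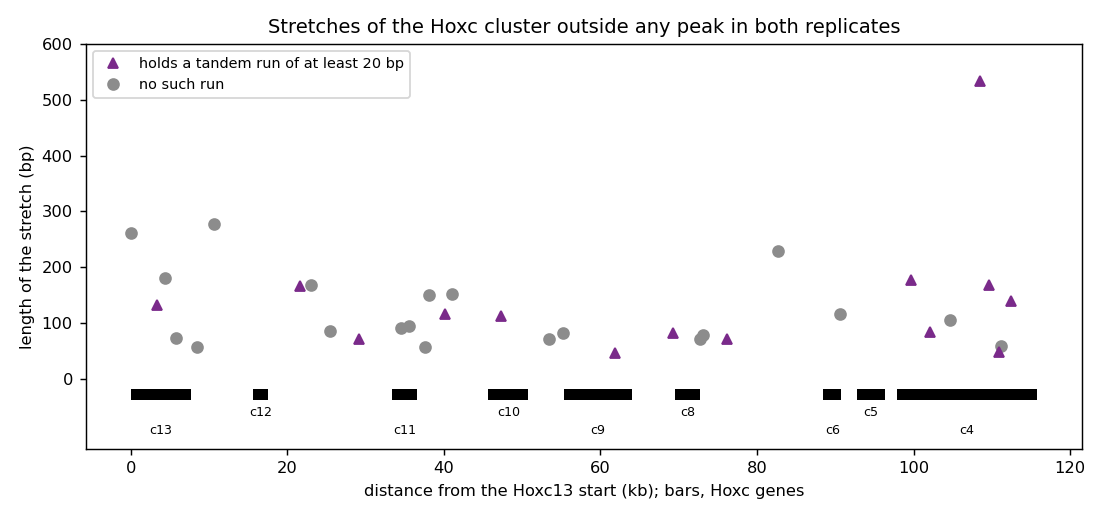
Length in bases of the 34 stretches of the Hoxc cluster outside any peak in both replicates, against their distance from the Hoxc13 start in kb; triangles hold a tandem run of at least 20 bases, circles hold none, and black bars are the genes. The 14 triangles lie across the cluster, and the stretch at the Hoxc13 start is drawn from the first base of the gene (261 bases).

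Joining bases common to both replicates across gaps of up to 3 kb gave a single domain over the cluster, chr15:102904910-103076940, of 172.0 kb. It was the longest of the 16987 domains built the same way over the genome, a rank given for this list and joining distance only. It began 16.2 kb before Hoxc13 and ended 40.1 kb past Hoxc4, and 86.2% of its bases were common to both replicates. Built from 1 replicate alone, the domain measured 174.8 kb in replicate 1 and 246.2 kb in replicate 2. Its left edge was then 18.0 kb before Hoxc13 in replicate 1 and 17.3 kb in replicate 2, and in the replicated lists and those called on both libraries together it was 26.0 to 49.6 kb before. Its right edge was 41.1 kb past Hoxc4 in replicate 1 and 113.2 kb in replicate 2. On the common bases it was 9.93 kb past Hoxc4 when they were joined within 1 kb and 113.2 kb when joined within 5 kb. Both edges thus depended on the list, and the right one also on the joining distance.

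The edges differed in form. Before Hoxc13 the share of bases covered in both replicates fell over successive steps of 5 kb from 86.4% to 73.1%, 67.9% and 22.0%, and was 0 in the next 8 steps. Over 120 kb on that side, 3 of 24 steps reached 50%, and 18 steps had no common base. Past Hoxc4 the first steps had 100%, 56.3% and 30.6%, and the share then rose again to 97.4% at 30 to 35 kb. On that side 16 of 24 steps reached 50% and no step was without common bases, with a lowest value of 11.4%. Common bases were found again at 60 to 65 kb (6.58%) and 65 to 70 kb (7.82%) before Hoxc13. Common cover beyond 20 kb was thus sparse on the Hoxc13 side, and on the Hoxc4 side it went on in blocks.

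**Figure D4:**
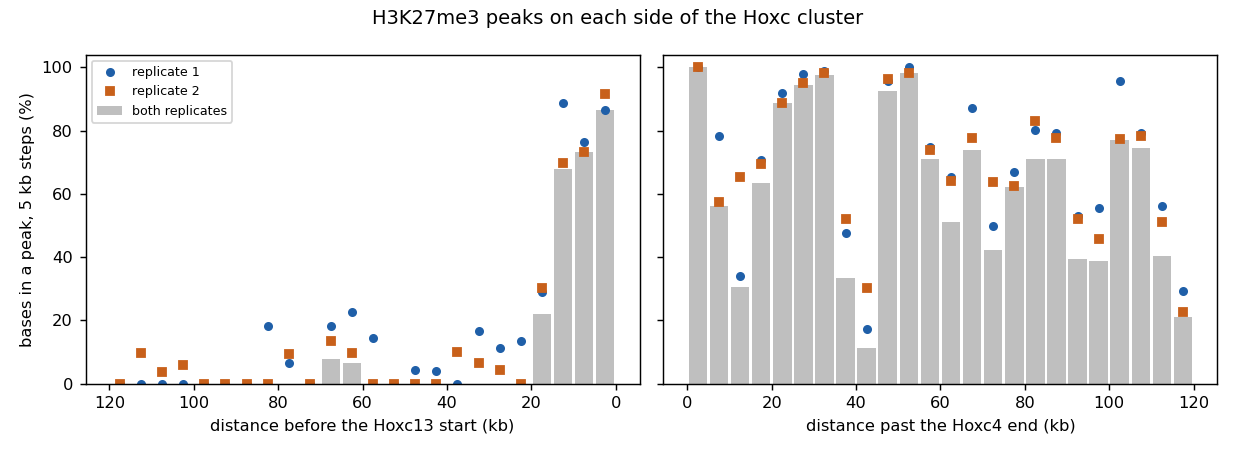
Share of bases in a peak (%) in steps of 5 kb before the Hoxc13 start (left, distance running outward to 120 kb) and past the Hoxc4 end (right); grey bars are bases common to both replicates, circles replicate 1 and squares replicate 2. Common cover is 0 from 20 to 60 kb before Hoxc13, and past Hoxc4 it stays between 11.4% and 100%.

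The blocks past Hoxc4 were followed to the last common base before the gene Cbx5, chr15:103184607, 147.8 kb past Hoxc4. Of that stretch, 61.5% was covered in both replicates. From there to 400 kb past Hoxc4 a further 9228 bases were common to both replicates. The domain next to the Hoxc one began only 4.43 kb on and was 28.8 kb long, whereas the nearest domain on the other side ended 45.9 kb away. The annotated gene 5730585A16Rik, the only other one inside the domain beyond Hoxc4, was covered at 91.0% in both replicates. Smug1, a DNA repair glycosylase and the first protein-coding gene past the domain, had 1857 and 1797 of 2001 bases covered around its 5' end, but 13.8% of its body in both. Its highest signal values there, 9.04 and 7.29, were below those of every Hoxc gene in the same list. Cbx5, a heterochromatin protein, and Hnrnpa1, a splicing factor, followed with no peak within 5 kb. On the Hoxc13 side Calcoco1, Atp5g2 and Atf7, the nearest of which is 182.7 kb from the domain, had none either.

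Beside the other 30 HOX genes, the Hoxc genes had cover of a similar size, with no test made, since neighbouring genes share peaks and there is 1 group. All 39 HOX genes had peaks within 1 kb in both replicates. The median cover in both replicates within 5 kb was 9495 of 10001 bases for Hoxc, 9372 for Hoxa, 9367.5 for Hoxb and 8731 for Hoxd. Over all protein-coding genes with a peak within 1 kb in both replicates it was 2937. The cluster intervals were covered in both replicates at 92.9% for Hoxc, 90.4% for Hoxa, 73.3% for Hoxb and 88.8% for Hoxd. Bases between the annotated gene bodies, the long Hoxc5 one included, were covered at 92.8% in Hoxc, 85.1% in Hoxa, 90.1% in Hoxd and 60.8% in Hoxb. The Hoxb interval runs out to Hoxb13, which lay in a domain of its own, and the domain from Hoxb1 to Hoxb9 was covered at 90.1% in both replicates.

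Signal values of Hoxc were at the lower end among the clusters. The median over genes of the highest value within 1 kb was 13.7 in replicate 1 and 12.4 in replicate 2 for Hoxc, 14.8 and 14.7 for Hoxa, 16.7 and 16.5 for Hoxb, and 14.5 and 13.96 for Hoxd. The ranges overlapped, with Hoxc genes from 10.6 to 17.3 in replicate 1 and from 11.5 to 18.2 in replicate 2. Hoxb genes ran from 13.9 to 18.9 and from 12.1 to 17.9. Hoxc5 and Hoxc6 enter these values at their annotated starts, where Hoxc5 takes 10.6 and 12.1 from the same peaks as Hoxc10. Around its coding start Hoxc5 had 15.9 in replicate 1 and 11.5 in replicate 2. Hoxc6 had 13.3 and 13.9 around its coding start, in place of 15.1 and 17.35.

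**Figure D5:**
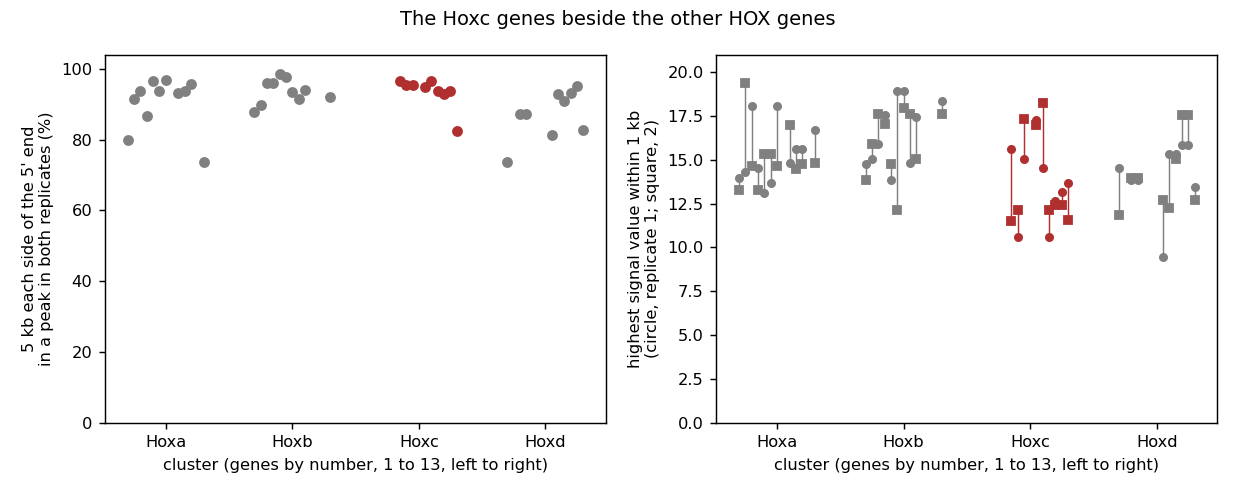
Left, share (%) of the window of 5 kb on each side of the 5' end that was in a peak in both replicates; right, highest signal value within 1 kb of the 5' end in replicate 1 (circles) and replicate 2 (squares), for every HOX gene by cluster and gene number, with Hoxc in red. The median Hoxc gene has 9495 of 10001 bases covered and signal values of 13.7 and 12.4.

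The open start of Hoxc13 had counterparts among its paralogues, the genes of the same number in other clusters. Within 1 kb, 1042 bases were covered in both replicates at Hoxc13, 1084 at Hoxa13, 1232 at Hoxd13 and 2001 at Hoxb13. The starts of Hoxa13 and Hoxd13 were also outside the peaks in both replicates, and so was that of Hoxa4, 3 of the other 30 HOX genes. Hoxb13 was the member of the group whose window was complete.

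The extent beyond the cluster also varied. Within 100 kb beyond the Hoxc13 end, 13.2% of bases were covered in both replicates, and 64.3% beyond the Hoxc4 end. In the other clusters the corresponding shares were 47.7% and 5.42% for Hoxa, 34.6% and 32.7% for Hoxb, and 18.9% and 3.59% for Hoxd, with the Hox13 side first. Hoxc was the one cluster of the 4 with more common cover on the side away from its Hox13 gene at this distance. In the separate replicates Hoxb had slightly more there too, 40.05% against 37.98% in replicate 1 and 39.2% against 38.8% in replicate 2. Within 20 kb the Hoxc sides were alike, at 62.4% and 62.6%.

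The repeat share was higher among uncovered than among covered bases in each of the 4 clusters, by different amounts. The repeat share of bases outside peaks in both replicates was 54.8% in Hoxc, 52.0% in Hoxb, 35.3% in Hoxd and 24.8% in Hoxa, against 12.2% to 15.8% of bases covered in both. Of the bases in tandem runs of at least 20 bases, 33.8% were outside peaks in Hoxc, 33.0% in Hoxb, 23.8% in Hoxd and 6.82% in Hoxa. The shares of the whole intervals outside peaks in both replicates were 3.81% in Hoxc, 19.8% in Hoxb, 5.48% in Hoxd and 4.59% in Hoxa, so in Hoxa the tandem runs were close to the rest.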

How the data were processed

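H3K27me3 ChIP-seq peak lists of 2 biological replicates of E14TG2a.4 cells were used. The authors deposited, per the file headers, 8 lists on mm10 from 2 processing runs. The main values come from the list of each replicate labelled as pseudoreplicated, a term for peaks supported by random splits of 1 library. The sources used here do not give the aligner, the peak caller, its thresholds, any control or the depth, so no interval or floor was computed. Each deposited row holds a signal value, whose scaling is not given, and a q-value as −log10, which served only as a filter in an alternative. A list on mm9 was not used.

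Covered bases were counted with Python 3 and NumPy from the 2 lists: within 1 kb and 5 kb of each GENCODE M21 gene's first base, over gene bodies, and between genes. Common bases were joined within 3 kb. A peak counted as present from 1 shared base. Repeats are the lower-case bases of the RefSeq GRCm38.p6 sequence, whose chromosome 15 has the length that mm10 gives. The interval functions were tested on simulated peaks. The named genes were the 9 members, all annotated genes inside the domain, the 3 nearest protein-coding genes on each side, and HOX paralogues or extremes. The members and lists were chosen with earlier results of these data known. With 1 group of 2 replicates no test was made. The replicates share 1 line and donor, so their spread may be technical. Other peak lists, windows, joining distances and single replicates were tried.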

Additional observations from a re-analysis of the deposited data

How the results depend on the processing

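The count of 9 Hoxc genes with a peak within 1 kb of the 5' end was 9 under all 12 alternatives tried. Of these, the start of the coding transcript was chosen after seeing the data. The count could not rise above 9. Dropping a replicate, widening the window to 2.5 kb or taking any transcript start could not lower it. The filter on q left the cluster share at 92.9%. Those alternatives are thus no check of the count. The cluster share covered in both replicates, 92.9%, was 96.3% in the replicated list of the second run and in the list called on both libraries together, and 96.4% in the replicated list of the first run. Taking 1 replicate alone gave 93.8% to 95.3%, and could not have given less than the share covered in both. In the relaxed list of both libraries together, chosen after seeing the data, it was 96.4%. The domain of 172.0 kb measured 255.2 kb in the list called on both libraries together, 141.9 kb and 245.2 kb when bases were joined within 1 kb and 5 kb, and 285.3 kb in the relaxed list of both libraries together. With 1 replicate alone it was 174.8 to 246.2 kb, and could not have been shorter than on the common bases. Every domain spanned the 9 genes. It ended between 9.93 and 119.9 kb past Hoxc4 and began between 16.2 and 49.6 kb before Hoxc13. Of the values for single genes, 99 of 209 moved by more than 1 SD of the replicates, by at most 1.27 times (for signal, the mean of the replicates' values). Of these moves, 96 were upward. The filter on q changed none of the cover values, and 1 replicate alone could not lower cover common to both, so these settings are limited checks. Of the 34 uncovered stretches, 30 were also open at their centre in the list called on both libraries together. The coding start in place of the first GENCODE base for Hoxc5, also chosen after seeing the data, gave 1944 bases in place of 1610. No paired analysis was possible because there is a single group.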

Other observations

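From 45 to 55 kb past Hoxc4 the highest signal value was 14.2 in replicate 1 and 13.4 in replicate 2, and 92.6% and 98.1% of the successive 5 kb steps were covered in both replicates. These values are within the range of the Hoxc genes. Past Hoxc4 and before Smug1 the annotation has 5 lincRNAs, named here after their values were seen. Gm10830 and Gm28265, which overlap each other, were covered at 100% of their bodies in both replicates, Gm49477 at 87.1%, and Gm28876 and D930007P13Rik at 59.1% each.

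Peak lists give no level below the threshold and no read counts. A base outside a peak is one without a call, and is not shown to lack the mark. Signal values belong to whole peaks, so neighbouring genes under 1 wide peak take the same value, as Hoxc5 and the first Hoxc4 start do. Depth is not known, so what it limits cannot be stated.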
